A study of Mus musculus with 3 samples.

Results

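The 10 genes described here encode parts of the contractile apparatus that myofibroblasts assemble: the actins Acta2 and Actg2, the actin-binding proteins Tagln, Cnn1, Cnn2 and Cnn3, the tropomyosins Tpm1 and Tpm2, the myosin light chain Myl9 and the myosin heavy chain Myh9. They were chosen by symbol for this role, with earlier results of these data known, and are 10 of the 29267 genes in the tables. RNA-seq was performed on 3 libraries of mouse cells, 1 library per cell type or strain. OG2 MEFs were embryonic fibroblasts from OG2 mice, whose cells contain the Oct4-GFP reporter transgene, at passages 3 to 5. ICR MEFs were embryonic fibroblasts of the ICR strain at the same passages, and the labels name no transgene in them. The third library came from R1 embryonic stem cells at passage 30, labelled naive, and R1 is a single established line. No library carried a drug treatment in the labels. MEFs are the cells from which reprogramming starts, and ESCs were its reference end point, so the comparison asks which genes separate the start from the end.

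Fibroblasts pull on their surroundings through stress fibres, in which bundles of actin slide along filaments of non-muscle myosin II. Tropomyosins lie along the actin filament and set which partners reach it, calponins and transgelin bind to its side, and phosphorylation of the regulatory light chain switches the myosin motor on. When fibroblasts are cultured on a stiff dish or exposed to TGF-beta, they become myofibroblasts, of which smooth muscle actin (the product of Acta2) is the classic marker. Many genes of this apparatus are targets of serum response factor (SRF), which binds a short DNA element called the CArG box together with myocardin-related coactivators. Acta2, Actg2, Tagln, Cnn1 and Myl9 are also known from smooth muscle. Cnn2, Cnn3, Tpm1, Tpm2 and Myh9 are used by many cell types, muscle among them for the tropomyosins.

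Promoters of 4 members are printed because they show where a CArG box lies in this gene set, and where none was found. They are the 170 bases before the start site in RefSeq (GRCm38.p6), written 5′ to 3′ on the strand of the gene, and capitals mark a CArG box, or a match in which 1 of its 6 central bases is another base. The windows are chr19:34255374-34255543 on the minus strand for Acta2, chr10:79988430-79988599 on the plus strand for Cnn2, chr2:156775294-156775463 on the plus strand for Myl9 and chr4:43523555-43523724 on the minus strand for Tpm2.
Acta2: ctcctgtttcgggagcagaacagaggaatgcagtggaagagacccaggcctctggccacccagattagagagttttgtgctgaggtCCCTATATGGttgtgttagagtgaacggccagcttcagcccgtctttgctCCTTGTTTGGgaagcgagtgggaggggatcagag
Cnn2: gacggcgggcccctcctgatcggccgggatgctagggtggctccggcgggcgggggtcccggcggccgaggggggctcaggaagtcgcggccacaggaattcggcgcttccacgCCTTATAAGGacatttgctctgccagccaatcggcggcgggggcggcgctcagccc
Myl9: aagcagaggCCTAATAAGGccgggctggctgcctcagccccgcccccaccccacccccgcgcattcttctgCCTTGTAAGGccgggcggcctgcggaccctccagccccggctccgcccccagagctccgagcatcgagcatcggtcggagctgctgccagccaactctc
Tpm2: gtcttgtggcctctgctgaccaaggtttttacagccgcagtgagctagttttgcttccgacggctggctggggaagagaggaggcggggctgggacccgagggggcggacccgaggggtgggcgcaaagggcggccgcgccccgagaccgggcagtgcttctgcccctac
RefSeq windows from 250 bases before to 50 bases after the start site were found for 8 of the 10 members, all but Actg2 and Tagln. An exact CArG box was present on either strand in 2 of these 8 windows and in 1.63% of 32851 windows of this length. Cnn2 carried it at position -56 and Myl9 at position -161, counted from the start site. When 1 other central base was allowed, 3 of 8 member windows and 9.98% of all windows held a match. Acta2 then had matches at positions -84 and -34, and Myl9 had a further match at -99 beside its exact box. The Tpm2 window and those of Cnn1, Cnn3, Tpm1 and Myh9 had no match, which says only that these letters are not in this window. GGAATG, the element bound by TEAD factors, was found in the windows of Acta2 and Tpm1 and in 14.7% of all windows. TATAAA was found in the Myh9 window alone among the members, on the reverse strand, and in 13.6% of all windows. The 2 elements other than the CArG box do not overlap it in the members.

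Expected counts are estimated numbers of reads per gene. Those of OG2 MEFs summed to 5149312, those of ICR MEFs to 4590619 and those of the library labelled ESC to 1717838. Counts were scaled to counts per 1000000 counts (CPM) with TMM factors of edgeR, and a difference from MEFs is the log2(CPM + 1) of the library labelled ESC after the MEF mean is subtracted. This scale slightly understates changes of low genes. The edgeR test computed its TMM factors again after its low-count filter, so its adjusted p is not on exactly the scale of the printed differences. The ESC side had 1 library, so the spread in every test came from the MEF pair, whose members also differ in strain, with 1 residual degree of freedom. SDs are over n = 2 MEF libraries, and counting intervals at 95% cover counting error only. The labels do not say whether the libraries came from separate cultures. All 10 fibroblast markers were present in both MEFs, with a summed TPM of 17347 and 18519 and of 1216 in the library labelled ESC, where all 10 were called lower. TPM is the abundance per length, scaled to 1000000 in each library. The label of the ESC library was borne out only in part. Pou5f1, Nanog and Sox2 were higher in it than in MEFs, but Zfp42, Esrrb, Dppa5a, Utf1 and Dppa4 were at 0 counts, 5 of 10 pluripotent cell markers.

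The contractile genes took 1.65% of all counts in the OG2 MEF library, 1.4% in the ICR MEF library and 0.273% in the one labelled ESC. Of the 10 members, 8 were lower in the library labelled ESC by the quasi-likelihood test of edgeR (Benjamini-Hochberg adjusted p under 0.05), where 36.0% of the 12663 genes tested were called lower. They were Acta2, Tagln, Cnn1, Cnn2, Cnn3, Tpm1, Myl9 and Myh9, and each was at least 1 log2 unit below both MEFs, as were 35.7% of the genes tested. Tpm2 was called higher by the same test, where 31.4% of genes were, but its difference turned negative when TPM replaced CPM or when gene length was corrected for. Actg2 was not called. All 10 members passed the filter on low counts. The median difference of the members was -2.19 on the log2 scale, beside -0.41 for all genes tested. In these bulk samples, fewer cells of a type and less RNA per cell cannot be told apart. Across the protein-coding genes tested, the difference also moved with gene length (Spearman's rho = -0.36 across 12055 genes) and with GC content (rho = 0.25), and genes are not independent replicates. The part of length and GC content in the members' differences is given below as values after correction.

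**Figure D1:**
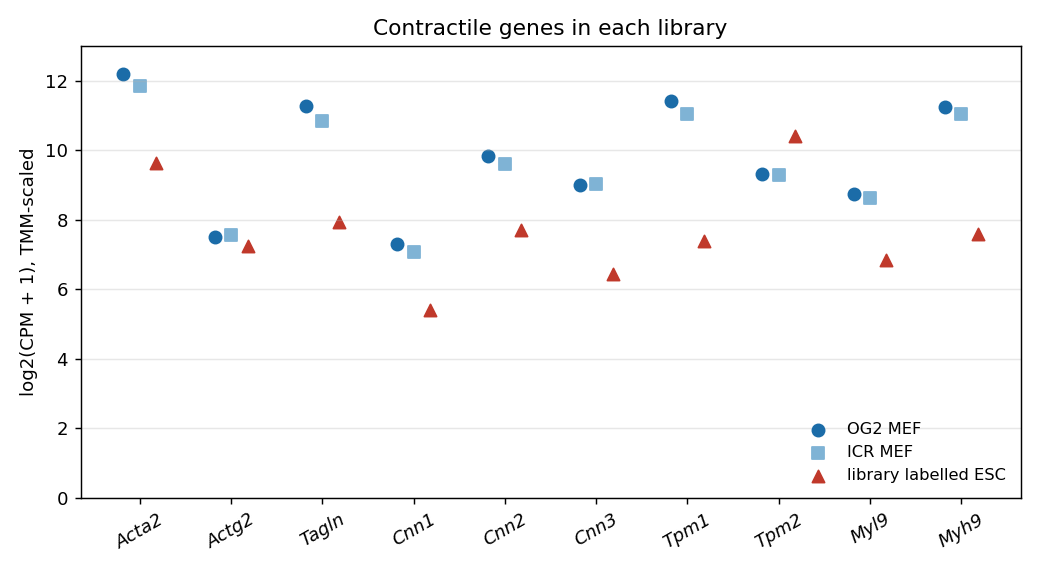
Level of the 10 contractile genes in each library, on the y axis as log2(CPM + 1) after TMM scaling, with circles for OG2 MEFs, squares for ICR MEFs and triangles for the library labelled ESC. For 8 genes both MEF points lie well above the ESC point, the 3 points of Actg2 lie close together, and for Tpm2 the ESC point is the highest on this scale but not in TPM.

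Acta2 (ENSMUSG00000035783, chr19:34241090-34255590, minus strand, GRCm38) encodes smooth muscle alpha-actin, and its promoter is the first of those printed. It had 4694 CPM in OG2 MEFs, 3720 CPM in ICR MEFs and 797 CPM in the library labelled ESC, from 26444.68, 19227 and 1112 expected counts. Both MEFs lay far above the ESC library, and the mean CPM of the MEFs was 5.28 times that of the ESC library. The difference was -2.39 on the log2 scale (SD of the MEFs 0.24, n = 2), with a counting interval of -2.49 to -2.32 and an edgeR adjusted p of 4.13e-05. Per length, Acta2 was the most abundant member in both MEFs, at 5863 and 4960 TPM, and came after Tpm2 in the library labelled ESC, at 345 TPM.

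Actg2 (ENSMUSG00000059430, chr6:83512905-83536265, minus strand) encodes smooth muscle gamma-actin, the enteric form. It had 181 CPM in OG2 MEFs, 188 CPM in ICR MEFs and 151 CPM in the library labelled ESC. The values were close in all 3 libraries, with a log2 difference of -0.28 (SD 0.04, n = 2), a counting interval of -0.5 to -0.08 and an edgeR adjusted p of 0.568. The counting interval lay below 0, but the test did not call it. The test also uses the spread between the MEFs, and its TMM factors were computed after the low-count filter. It is therefore not on exactly the same scale as the interval. In TPM it had 313 and 348 in the MEFs and 92.9 in the library labelled ESC.

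Tagln (ENSMUSG00000032085, chr9:45929619-45936058, minus strand) encodes transgelin, an actin-bundling protein also called SM22. It had 2464 CPM in OG2 MEFs, 1824 CPM in ICR MEFs and 242 CPM in the library labelled ESC. Its mean in the MEFs was 8.85 times the ESC value, and the log2 difference was -3.12 (SD 0.31, n = 2, edgeR adjusted p = 1.32e-05). It shares 108 exonic bases with Pcsk7 on the opposite strand, and Pcsk7 had 162.16, 152.83 and 21.0 counts in the same order. A further annotated gene on the opposite strand overlaps 1241 of the 1988 exonic bases of Tagln and was not among the genes counted. Whether the counting used strand is not given in the sources used here.

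The calponins bind actin and slow the myosin motor in smooth muscle. All 3 were lower in the library labelled ESC. Cnn1 (chr9:22099216-22109630), the form typical of smooth muscle, had 156 CPM in OG2 MEFs, 133 CPM in ICR MEFs and 41.6 CPM in the library labelled ESC, a log2 difference of -1.77 (SD 0.16, n = 2, edgeR adjusted p = 0.000142). Its counting interval of -2.21 to -1.43 was the widest of the members, since the ESC value rests on 58 counts. Cnn2 (chr10:79988584-79996062), the more widely expressed form whose promoter holds the exact CArG box, had 909, 772 and 209 CPM in the same order, a log2 difference of -2.00 (SD 0.17, n = 2, edgeR adjusted p = 6.38e-05). Cnn3 (chr3:121426497-121458207), the acidic form, had 514 CPM in OG2 MEFs, 517 CPM in ICR MEFs and 86.1 CPM in the library labelled ESC, a log2 difference of -2.57 (SD 0.01, n = 2, edgeR adjusted p = 9.66e-06). The MEF levels of Cnn3 were almost the same. Its exons overlap a gene of the opposite strand by 538 bases, and that gene was not among the genes counted.

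The tropomyosins were the members that parted. Tpm1 (chr9:67022590-67049406, minus strand), a main tropomyosin of stress fibres and muscle, had 2723 CPM in OG2 MEFs, 2095 CPM in ICR MEFs and 168 CPM in the library labelled ESC. With a log2 difference of -3.82 (SD 0.27, n = 2, edgeR adjusted p = 3.9e-06), a mean 14.4 times higher in MEFs, it had the largest difference of the 10. Tpm2 (chr4:43514711-43523765, minus strand), or beta-tropomyosin, had 636 CPM in OG2 MEFs, 632 CPM in ICR MEFs and 1365 CPM in the library labelled ESC. Its log2 difference was 1.11 (SD 0.01, n = 2, counting interval 1.03 to 1.18, edgeR adjusted p = 0.000175), but it was -0.51 in TPM, where the 3 values were 1268, 1320 and 906, and -0.07 after correction over bins of gene length. Set against the median of all genes tested under each of these settings, Tpm2 was 1.52 log2 units above it in CPM, 1.04 above it in TPM and 0.35 above it after the length correction. In TPM it was the most abundant member in the library labelled ESC, while Acta2, Tpm1 and Tagln stood above it in both MEFs.

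The myosin members fell together. Myl9 (chr2:156775420-156781658), the regulatory light chain of smooth muscle and non-muscle myosin, had 426 CPM in OG2 MEFs, 395 CPM in ICR MEFs and 115 CPM in the library labelled ESC, a log2 difference of -1.83 (SD 0.08, n = 2, edgeR adjusted p = 7e-05). Myh9 (chr15:77760587-77842175, minus strand), the heavy chain of non-muscle myosin IIA, had 2411 CPM in OG2 MEFs, 2122 CPM in ICR MEFs and 193 CPM in the library labelled ESC, a log2 difference of -3.54 (SD 0.13, n = 2, edgeR adjusted p = 2.8e-06). The mean of Myh9 in MEFs was 11.7 times the ESC value and that of Myl9 was 3.57 times. Myh9 transcripts are long, so in spite of its high CPM it stood below Cnn2 and Myl9 in TPM in both MEFs, at 667 and 630.

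**Figure D2:**
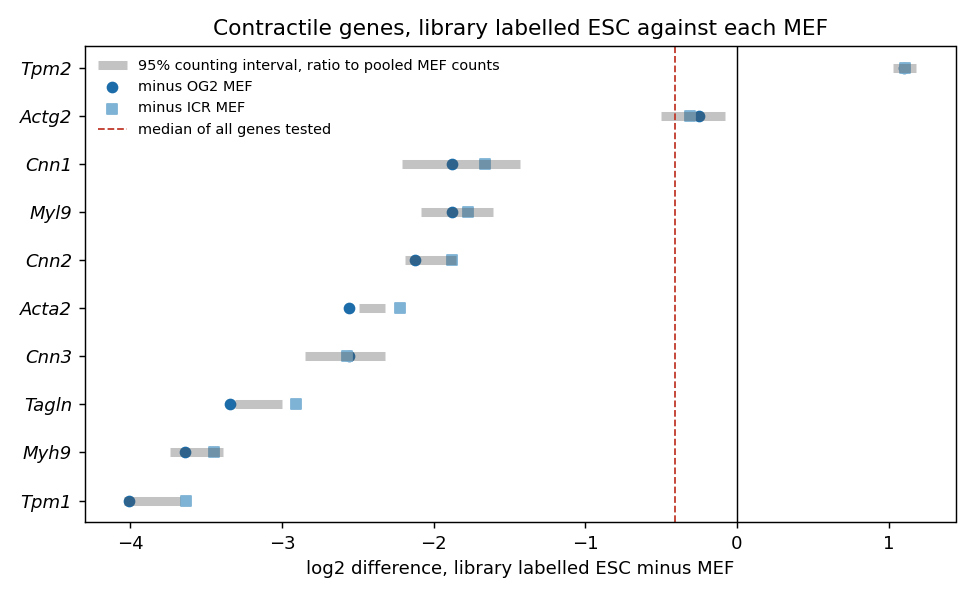
Difference of each contractile gene, on the x axis in log2 units, between the library labelled ESC and OG2 MEFs (circles) or ICR MEFs (squares), with the 95% counting interval against the pooled MEF counts as a grey bar and the median of all genes tested (-0.41) as a dashed line. Differences ran from -3.82 for Tpm1 to 1.11 for Tpm2 against the MEF mean, and the Tpm2 value was -0.51 in TPM.

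The order of the members by TPM was the same in both MEFs: Acta2, Tpm1, Tagln, Tpm2, Myl9, Cnn2, Myh9, Cnn3, Actg2 and Cnn1. In the library labelled ESC it was Tpm2, Acta2, Tagln, Actg2, Myl9, Tpm1, Cnn2, Cnn3, Myh9 and Cnn1. Their summed TPM was 17806 in OG2 MEFs and 15731 in ICR MEFs, beside 1757 in the library labelled ESC, where Tpm2 with 906 TPM made up most of what was left. Cnn1 was the lowest member in each library.

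Between the MEF strains, with 1 library each, no test was possible and differences are given with counting intervals. No member was 1 log2 unit apart between OG2 and ICR MEFs, and few of the genes tested were (3.1%). The counting interval lay above 0, with OG2 higher, for 7 members, and this held for 37.3% of the 1240 genes with at least as many counts in both MEFs as the lowest member. No member had an interval below 0, with ICR higher, as 18.3% of those genes did. The highest were Tagln at 0.43 log2 units (0.4 to 0.47), Tpm1 at 0.38 (0.34 to 0.41) and Acta2 at 0.34 (0.31 to 0.36). These 3 are also the most abundant members in TPM. The median absolute difference of the 1240 genes was 0.125. Cnn2 (0.24), Cnn1 (0.22), Myh9 (0.18) and Myl9 (0.11) differed less. In TPM their differences were smaller, at 0.05, 0.13, 0.08 and -0.04 in the same order, where the median of all genes tested was -0.09. Tagln, Tpm1 and Acta2 had 0.34, 0.22 and 0.24 in TPM. Actg2, Cnn3 and Tpm2 had intervals that held 0, so their MEF levels did not differ beyond counting error. Culture, embryo pool and strain cannot be told apart in this pair.

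**Figure D3:**
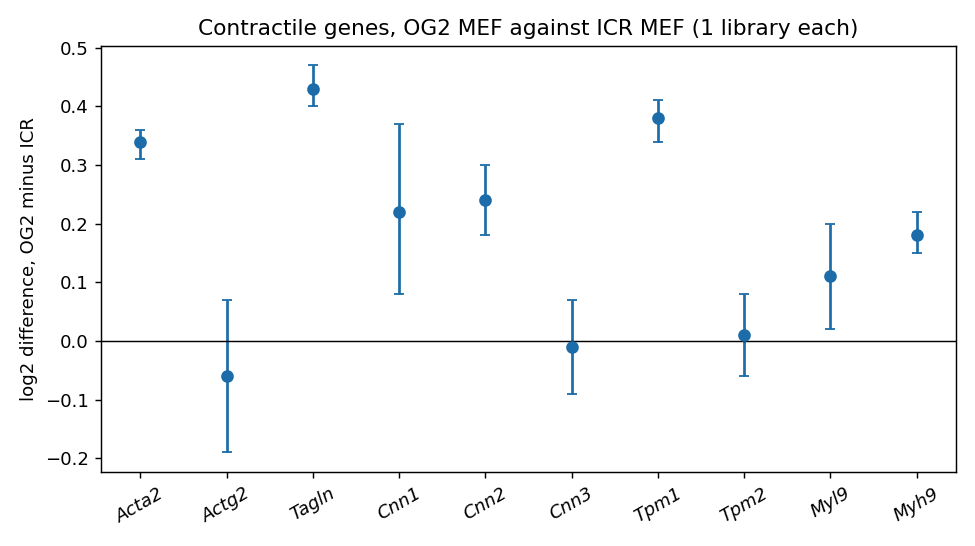
Difference of each contractile gene between OG2 and ICR MEFs, on the y axis in log2 units of CPM + 1, with 95% counting intervals as bars. Tagln, Tpm1 and Acta2 lie between 0.34 and 0.43, and the intervals of Actg2, Cnn3 and Tpm2 cross 0.

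Each member belongs to a family of close relatives, and its share of the family's counts does not depend on how libraries are scaled. In the actins, Acta2 took 33.4% of the counts in OG2 MEFs and 31.0% in ICR MEFs, beside 3.47% in the library labelled ESC (Wilson 95% interval 3.27 to 3.67). Actb, the cytoplasmic beta-actin found in every cell, took 20.6%, 27.4% and 77.2% in the same order. By counts and by TPM, the actins of MEFs were thus mostly Actg1 and Acta2, and those of the library labelled ESC mostly Actb. Actb rose by a log2 difference of 2.53 (edgeR adjusted p = 4.09e-06), with the same sign under all 8 alternative settings. Cytoplasmic gamma-actin, Actg1, went from 44.1% and 39.7% of the actin counts to 18.6%, with a log2 difference of -0.35 (edgeR adjusted p = 0.479). Actg2 took 1.29%, 1.57% and 0.658%. Acta1, the skeletal muscle form, had 458.04, 228.02 and 19 counts and fell by 2.06 on the log2 scale (edgeR adjusted p = 0.00479), and cardiac Actc1 had 3, 1 and 0 counts. The summed CPM of the actins was 14033 and 11998 in MEFs and 23009 in the library labelled ESC, whereas their summed TPM was 16702, 15240 and 9319. The median gene also stood lower in TPM, at a log2 difference of -1.55, than in CPM, at -0.41. RSEM divides reads that match several genes, so counts of close relatives are uncertain. The counts of Acta2 in OG2 MEFs and of Myh9 in both MEFs were not whole.

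The transgelins shifted in the same manner. Tagln held 83.3% and 80.5% of the family's counts in MEFs and 16.9% (15.3 to 18.6) in the library labelled ESC, while Tagln2, the form of non-muscle cells, went from 16.6% and 19.4% to 83.0%. Tagln2 had a log2 difference of 1.36 (edgeR adjusted p = 6.48e-05), and -0.52 in TPM, where the median of all genes tested was -1.55, and -0.07 over bins of GC content and length. Tagln was the main transgelin of MEFs and Tagln2 that of the library labelled ESC, by counts and by TPM. Tagln3 had 10, 13 and 2 counts. In the tropomyosins, Tpm1 went from 54.1% and 51.1% of the counts to 6.01%. Tpm2 went from 12.6% and 15.4% to 48.9% (47.3 to 50.4), and by TPM from 19.3% and 22.0% to 63.8%, so its larger share did not depend on the unit. Tpm3, known from non-muscle cells and slow muscle, went from 11.9% and 8.2% to 43.3%, with a log2 difference of 1.43 (edgeR adjusted p = 0.00119) and of -0.29 in TPM, again above that median. Tpm4, also a tropomyosin of stress fibres, went from 21.4% and 25.3% to 1.77% and had a log2 difference of -4.39 (edgeR adjusted p = 9.38e-07).

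In the calponins and the myosin heavy chains the members fell, but their shares within the family moved less. Cnn1 held 9.89%, 9.39% and 12.4% of the calponin counts in OG2 MEFs, ICR MEFs and the library labelled ESC. Cnn2 held 57.6%, 54.3% and 62.0%, and Cnn3 32.5%, 36.3% and 25.6% (21.8 to 29.7). Cnn2 was the main calponin of each library, by counts and by TPM. Myh9 held 74.9%, 74.1% and 75.4% (70.6 to 79.5) of the heavy-chain counts, while Myh10, the heavy chain of myosin IIB, held 24.0%, 23.9% and 21.8%. Myh10 fell by 3.68 on the log2 scale (edgeR adjusted p = 2.18e-06). By TPM the Myh9 share was 71.3% in both MEFs and 45.4% in the library labelled ESC, where RSEM gave Myh10 an effective length of 1995 bases, beside 6022 and 6316 bases in the MEFs. The smooth muscle heavy chain Myh11 had 202.05, 284.06 and 3 counts, and Myh14 had 1, 8 and 7. Among the regulatory light chains, Myl9 held 33.4%, 32.0% and 41.5% (36.6 to 46.4), Myl12a 59.4%, 60.0% and 29.8%, and Myl12b 7.28%, 8.0% and 28.8%. As RSEM divided the counts, Myl12a had the largest share in MEFs, and Myl9 in the library labelled ESC, although Myl9 itself fell. The counts of Myl12a and Myl12b were not whole in any library, so the split between these relatives is uncertain, and so is their order with Myl9. Myl12a had a log2 difference of -3.17 (edgeR adjusted p = 3.43e-06) and Myl12b of -0.26 (edgeR adjusted p = 0.64).

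**Figure D4:**
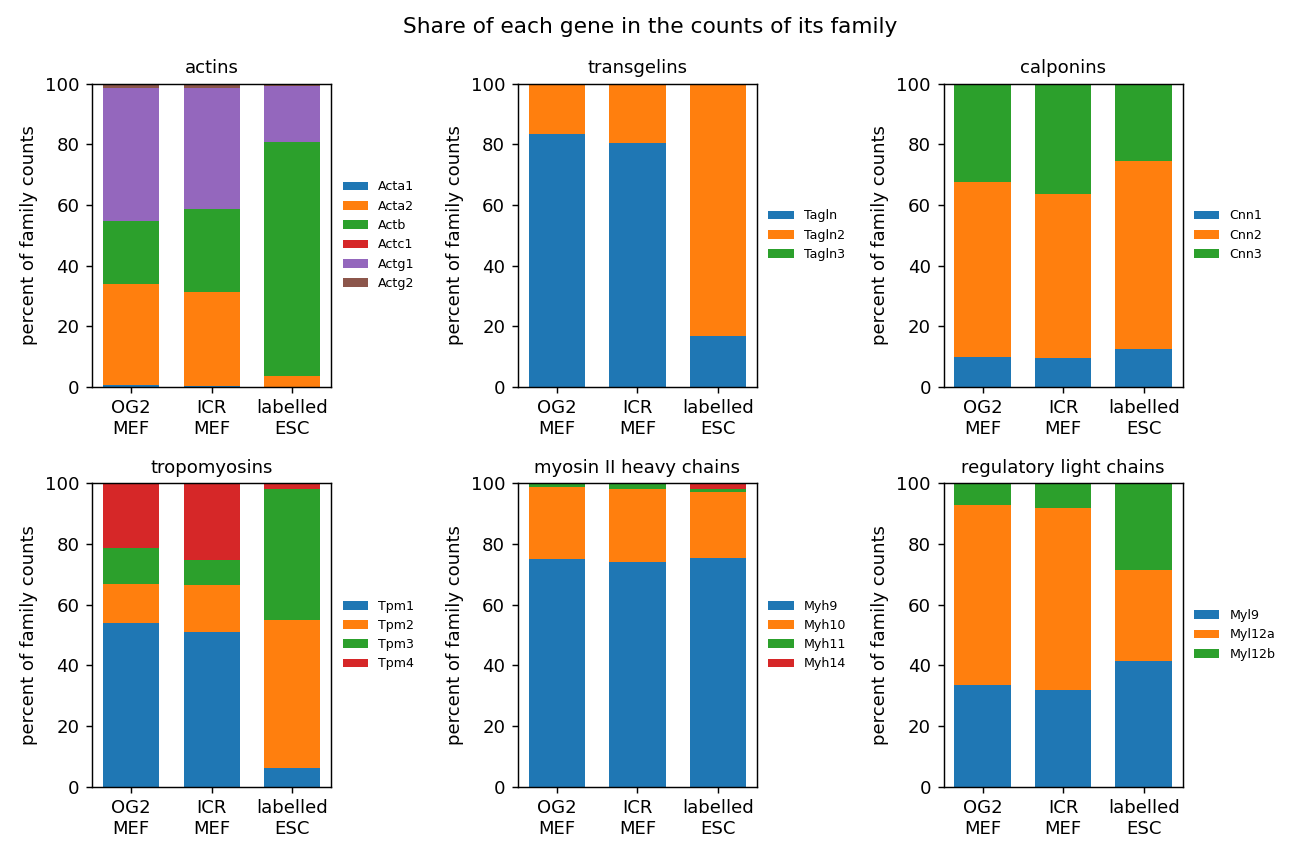
Share of each gene in the expected counts of its family, on the y axis in percent, in OG2 MEFs, ICR MEFs and the library labelled ESC, for 6 families. Acta2, Tagln and Tpm1 shrink in the ESC bar, to 3.47%, 16.9% and 6.01%, while the bars of the calponins and heavy chains look much alike in the 3 libraries.

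The other genes of contraction were counted from lists. Of 16 genes for actin crosslinking and adhesion, 11 were called lower and 2 higher (Csrp2, and Actn4, which had -1.17 in TPM and -0.10 over bins of GC content), with a median log2 difference of -2.51. Over all genes tested, 36.0% were called lower and 31.4% higher, with a median of -0.41, and the median on the TPM scale was -1.55. Caldesmon, Cald1, which restrains the binding of myosin to actin, fell by 2.91 on the log2 scale (edgeR adjusted p = 6.44e-06). Filamin A, Flna, which crosslinks actin, had -0.57 (edgeR adjusted p = 0.122). Of 15 regulators of contraction, 11 were lower and 4 higher (Limk1, Limk2, Cfl1 and Diaph1), with a median of -2.03. In TPM these 4 had -0.69, -0.35, -0.94 and -0.88, each above the -1.55 of the median gene on that scale, and Limk2 had -0.13 over bins of GC content. The GTPase gene Rhoc fell by 2.60 (edgeR adjusted p = 2.52e-05). Cfl1, the actin-severing cofilin, had 0.66 in CPM (edgeR adjusted p = 0.00367), and -0.52 after the correction over gene length bins.

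SRF and its coactivators, the factors known to drive many of these genes, were counted in full. Srf had 73.3 CPM in OG2 MEFs and 72.6 in ICR MEFs, beside 75.3 in the library labelled ESC, a log2 difference of 0.05 (edgeR adjusted p = 0.288). Its coactivator Mrtfa had 66.7, 70.0 and 66.7 CPM, a log2 difference of -0.04 (edgeR adjusted p = 0.52). Mrtfb was called higher, with 45.8, 47.2 and 61.7 CPM and a log2 difference of 0.40 (edgeR adjusted p = 0.021). In TPM, all 3 were lower, with log2 differences of -1.45, -1.54 and -1.01. Srf and Mrtfa were thus close to the -1.55 of the median gene on that scale, and Mrtfb was above it. Over bins of gene length the 3 had 0.66, 0.57 and 1.51, where the median gene had -0.41. Over bins of GC content they had -1.10, -0.88 and 0.42, where it had -0.42. Their direction thus depends on the setting. Myocd, the coactivator of smooth muscle, had 12 and 11 counts in MEFs and 0 in the library labelled ESC (edgeR adjusted p = 0.0897). In that library 3 counts are 1.75 CPM before TMM scaling. Of 10 genes of TGF-beta signalling and its fibroblast targets, 9 were lower and none higher, with a median of -2.96, beside 36.0% lower and a median of -0.41 over all genes tested. Among them, the target Ccn2 had a log2 difference of -4.33 (edgeR adjusted p = 1.28e-06).

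Fibroblast and smooth muscle markers were mostly lower, as most members were, and the lists of other cell types varied. The fibroblast markers had a median log2 difference of -3.70, with Col1a1 at -3.51 (edgeR adjusted p = 3.14e-06) and Vim at -1.14 (edgeR adjusted p = 0.00239). Of 6 smooth muscle markers 5 were lower (36.0% of all genes tested), with Smtn at -1.01 (edgeR adjusted p = 0.00335) and Des at -2.08 (edgeR adjusted p = 0.0037), and their summed TPM was 175, 169 and 25.0 in OG2 MEFs, ICR MEFs and the library labelled ESC. These sums were small next to those of the contractile genes. The 8 striated muscle markers summed to 132, 78.8 and 15.1 TPM, mostly Acta1 in MEFs, with Myod1 and Ckm at 0 in each library. Epithelial markers summed to 12.5, 19.9 and 68.5 TPM. Krt8, with a log2 difference of 5.36, alone had 54.1 TPM in the library labelled ESC, so the higher sum rests mostly on this gene. Epcam and Cdh1 were at 0 in both MEFs and had only 11 and 2 counts in the library labelled ESC, where Cldn4 was at 0. Endothelial markers summed to 4.1, 4.29 and 25.4 TPM. In the library labelled ESC, Pecam1 was higher and alone had 22.8 of these TPM, while Kdr was lower, at 0. Blood cell markers summed to 17.0, 12.4 and 6.13 TPM, with none of the 2 tested called. The part of these cell types in the members' values was not tested.

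The 3 genes whose pattern over the 3 libraries was most like that of Acta2 were B4galt4, Apbb1ip and Vegfd. Their centred log2(CPM + 1) differed from that of Acta2 by at most 0.0194, 0.0215 and 0.0224. This likeness rests on 3 points, and their level was much lower, at 4.54, 5.17 and 5.27 log2(CPM + 1) in OG2 MEFs beside 12.20 for Acta2.

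The members' differences were then set beside other scalings and corrections. The median of the members was -2.00 with median-of-ratios size factors, -3.84 in TPM, -2.62 after correction over 20 bins of gene length and -2.42 over bins of GC content. A correction over both, chosen after the data had been seen, gave -2.58. The median of all genes tested moved as well, to -0.24 with size factors and to -1.55 in TPM, and 8 to 9 of the 10 members lay below it under every setting. Tpm1 ranged from -5.33 to -3.63 over these settings. Myl9, a short gene, went from -1.83 to -3.19 after the length correction, while Myh9, a long one, went from -3.54 to -2.44. Actg2 went from -0.28 to -1.10 after the length correction and to -1.82 in TPM. Tpm2 was the member whose direction turned, as given above, yet it stayed above the median of all genes under every setting. Over bins of both GC content and gene length it was only 0.15 log2 units above that median.

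**Figure D5:**
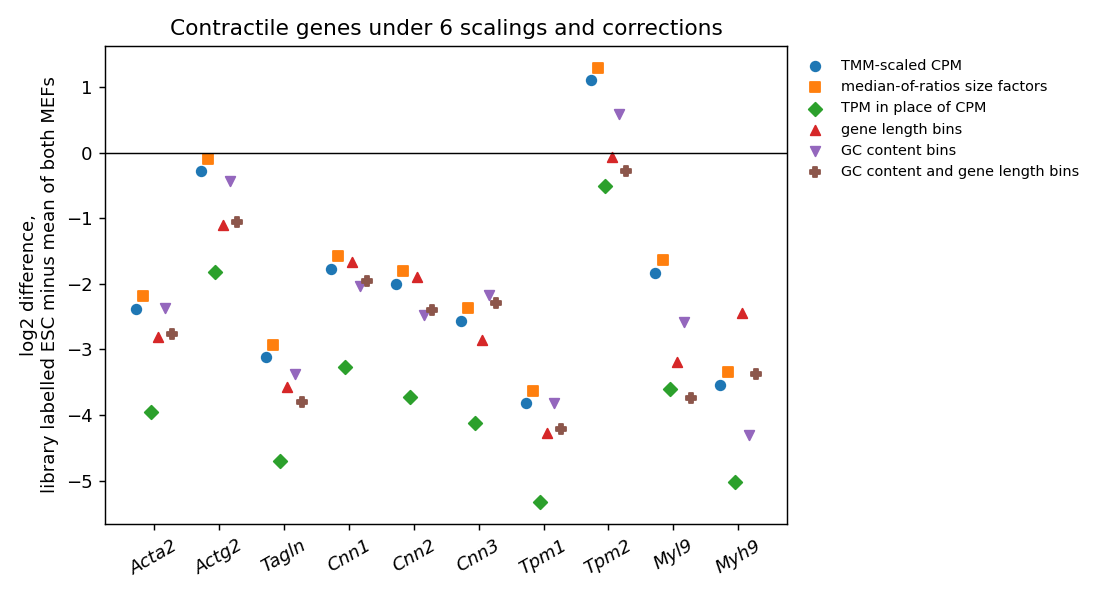
Difference, for each contractile gene, of the library labelled ESC from the MEF mean, on the y axis in log2 units, under TMM-scaled CPM, 2 other scalings and 3 corrections over bins of genes. Acta2, Tagln, the calponins, Tpm1, Myl9 and Myh9 stay below 0 in each, and Tpm2 is above 0 in 3 of the 6 and below 0 in TPM and both corrections that use gene length.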

How the data were processed

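RNA-seq was analysed in 3 libraries. The study describes trimming with TRIMMOMATIC, alignment with bowtie2 and quantification with RSEM, and the submitters' processing notes name Bowtie, RSEM and mm10. Each table the authors deposited holds an expected count per gene, which RSEM estimates, and was treated as made before the GC-content normalization the study names. The deposited TPM is scaled by the authors' RSEM run per length to a sum of 1000000. The deposited FPKM, scaled by length and depth, was not used. The study states Ensembl v67, but several identifiers seem later than that release, so the annotation behind the counts is uncertain. Symbols and positions come from GENCODE M21 on GRCm38, joined by identifier (98.3% matched).

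Expected counts were rounded, scaled with TMM and tested with edgeR 4.0.16 (quasi-likelihood, its low-count filter, Benjamini-Hochberg over 12663 genes, adjusted p under 0.05) under R 4.3.3, after a test on simulated counts. Levels are log2(CPM + 1), with a pseudocount of 1. Their TMM factors were computed over all genes with a count, and those of the test over the genes that passed its filter. Ratios between libraries have exact binomial intervals and shares Wilson intervals, both at 95%, and PCR reads are not independent molecules, so they cover counting error only. At these depths 3 counts are 0.583, 0.654 and 1.75 CPM before TMM scaling in OG2 MEFs, ICR MEFs and the library labelled ESC. Alternatives were pseudocounts of 0.1 and 5, median-of-ratios size factors, DESeq2 1.42.0, TPM, no filter on low counts, each MEF library left out, and corrections over 20 bins of genes by length or GC content. Other values were computed with scipy 1.17.1, pandas 2.3.3 and numpy 2.4.6 in Python 3.11.15.

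The members and all lists were chosen with earlier results of these data known. Genes named are the 10 members, their families, the SRF genes, the 2 genes with the highest mean TPM of each other list where single values are given, genes called against the direction of most of a list, markers at 0 and the 3 genes closest to Acta2. Mkl1, Mkl2 and Ctgf were matched by their current symbols Mrtfa, Mrtfb and Ccn2. Of the genes this rule names, 1 is not reported here. Proteins of the members were not compared here. RefSeq promoter windows were matched by symbol.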

Additional observations from a re-analysis of the deposited data

How the results depend on the processing

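The counts of 8 members called lower and 1 called higher were the same with DESeq2. With either MEF library left out, 8 members were at least 1 log2 unit lower. That count restates that these 8 lie that far below both MEFs, so it is no separate check. DESeq2 called 2911 of all genes lower, beside 4563 with edgeR, and the cause was not tested. The Tpm2 difference, 1.11 in TMM-scaled CPM, reversed to -0.51 in TPM, to -0.07 after correction over gene length bins, and to -0.27 over GC content and gene length bins, a correction chosen after seeing the data. No other member changed sign. The differences of the members from MEFs changed by over 1 SD of the MEF pair in 41 alternative values and by less in 36, and the 3 Tpm2 values were the ones that reversed. For the differences between OG2 and ICR MEFs, 21 alternative values fell outside the counting interval of the main value and 49 did not. In OG2 MEFs 8 members were higher with TMM, 9 with size factors, 6 in TPM and 7 with each correction over bins. The median difference of all genes tested, OG2 minus ICR, was 0.0, 0.04, -0.09 and 0.0 in the same order. The share of all genes that were higher in OG2 MEFs was not computed, so these counts are not read as a trait of the members. No paired analysis was possible because the groups compared share fewer than 2 replicate numbers, with 1 ESC library. The edgeR test without a MEF library was not run, since each side would then hold 1 library. The depth of the library labelled ESC limits low members most, such as Cnn1 with 58 counts.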
